A study of Homo sapiens with 6 samples.

Results

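The genes described here are 10 components of the NF-kB system, 5 that encode its DNA-binding subunits (NFKB1, NFKB2, REL, RELA and RELB) and 5 that encode proteins acting on those subunits or on the signal to them (NFKBIA, NFKBIB, NFKBIE, TNFAIP3 and BCL3). They are named genes matched by symbol in a count table of 26485 gene rows, and all 10 were found and passed the filter on low counts, among 14018 genes that did. All samples are of PC-9, an established line from a human lung adenocarcinoma with mutant EGFR, grown in serum-containing medium. Of the 6 samples, 3 stably carried a short hairpin RNA (shRNA) against IFITM3 (shIFITM3) and 3 a control shRNA (shControl, named ShEV in the count table). The labels name no drug, no second hairpin and no re-expression of IFITM3, and they call the samples biological replicates without saying whether these were separate cultures, so the p-values measure only the spread between these samples.

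NF-kB is a family of transcription factors that work as dimers. In resting cells the dimers are kept in the cytoplasm by inhibitors of the IkB family, and in the canonical pathway IKK kinases mark those inhibitors for destruction, so that dimers such as p50 with RELA enter the nucleus. In the alternative pathway the kinase NIK drives the trimming of the NFKB2 precursor p100 to p52, which partners RELB. Several genes of the system are textbook targets of NF-kB itself, and the inhibitors among them close a negative feedback loop. In epithelial and lung cancer cells NF-kB is known for inflammatory and survival gene expression.

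Since these genes are known for carrying NF-kB sites, the sequences in front of them are shown first. The RefSeq promoter table (GRCh38.p14) held windows from 250 bases before to 50 bases after an annotated start for 8 of the 10 genes, 13 windows in all. RELB and NFKBIE had no entry. A kB consensus (3 G, a purine, 2 of any base, 2 pyrimidines and 2 C, read on both strands, overlapping matches allowed) was present in at least one window of 7 of the 8 genes, and of all 27305 genes with a window 13.3% held one. Counted by window, 8 of 13 had a match, beside 11.3% of all 35116 windows. RELA was the gene without a match in either of its windows. A match is a description of letters and not a measured binding site.

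The printed stretches are 30 bases each, 5′ to 3′ on the strand of the gene, with the bases that match the consensus on either strand in capitals. Positions are counted from the annotated start as 0. NFKB2 has 2 entries from annotated starts 2 and 3, because its matches lie near different starts. The printed stretches are a choice and not all matches. Further matches, not printed, begin at -78 (NFKB2, start 2), -176 (NFKB2, start 3) and 38 (NFKBIB). The stretches lie at chr4:102501300-102501329 (NFKB1, first matching base at -49), chr10:102394462-102394491 (NFKB2, -107), chr10:102395674-102395703 (NFKB2, -21), chr2:60881518-60881547 (REL, -47), chr14:35404811-35404840 (NFKBIA, minus strand, -81), chr19:38899932-38899961 (NFKBIB, -28), chr6:137867188-137867217 (TNFAIP3, -67) and chr19:44748700-44748729 (BCL3, 2), on the plus strand unless stated.
NFKB1: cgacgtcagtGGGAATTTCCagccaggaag
NFKB2, start 2: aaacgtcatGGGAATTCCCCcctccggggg
NFKB2, start 3: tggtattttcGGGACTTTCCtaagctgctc
REL: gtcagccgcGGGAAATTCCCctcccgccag
NFKBIA: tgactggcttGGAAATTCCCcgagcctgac
NFKBIB: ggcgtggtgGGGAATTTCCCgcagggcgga
TNFAIP3: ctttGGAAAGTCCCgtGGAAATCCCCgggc
BCL3: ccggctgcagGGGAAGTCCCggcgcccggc

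The same letters recurred among these genes. Read on the strand that spells the consensus, GGGAATTTCC was found for 4 of them (NFKB1, NFKBIA, NFKBIB and REL) and in 0.179% of all genes with a window. GGGACTTTCC was found for NFKB2 and TNFAIP3, and in 0.227% of all genes. Genes with a match included some that rose, some that did not pass the test and one that fell, as given below.

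**Figure D1:**
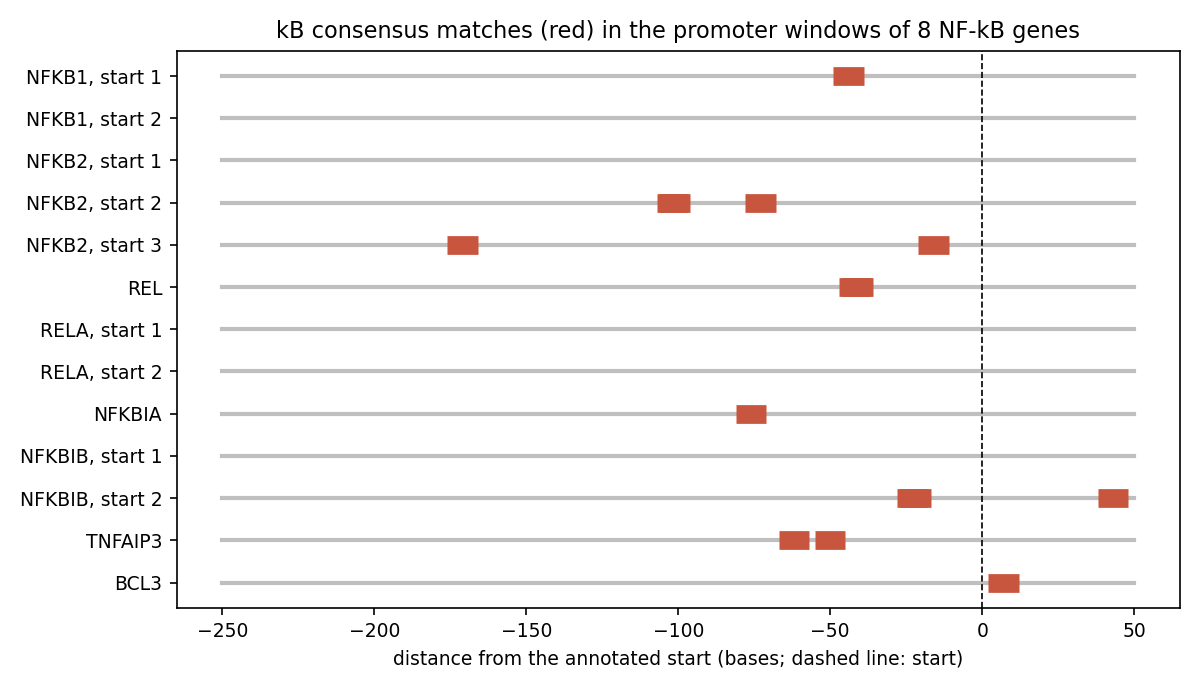
Distance in bases from each annotated start (x axis) of the kB consensus matches (red) in the 13 promoter windows (grey lines, one row per annotated start) of 8 NF-kB genes. Matches lie between 176 bases before and 47 bases after a start, and both RELA windows are empty.

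In knockdown cells 7 of the 10 genes were more abundant, 1 was less abundant and 2 did not pass the test (edgeR quasi-likelihood test, adjusted p under 0.05). RELB, NFKBIE and NFKB2 rose most, about 2- to 3-fold. TNFAIP3, NFKB1, NFKBIA and RELA rose less, and BCL3 fell. Of all tested genes 56.1% passed the same threshold, 27.7% as higher and 28.4% as lower, so a difference as such was common in this comparison. With a correction for GC content and length, chosen after seeing the data, 3308 genes were higher and 4805 lower, against 3885 and 3985 without it. The corrected values were not centred again, and the median log2 fold change of all tested genes was then -0.0552. How much of the changed balance goes with that shift was not tested. Without the correction the median log2 fold change of the 10 genes was 0.44, and that of all tested genes was -6.33e-05. The groups did not overlap in any sample for 9 of the 10 genes, 8 higher and 1 lower. Among all tested genes 60.9% had groups that did not overlap, 30.1% higher and 30.8% lower.

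The knockdown and the cells were checked first. IFITM3 was between 57.0 and 62.8 CPM (counts scaled to a common library size) in shControl and between 9.75 and 12.9 CPM in shIFITM3. Library totals ran from 21342028 to 27493145 counts in 5 samples and reached 77228760 in shControl replicate 2. All 8 epithelial markers were tested, and 2 rose and 3 fell, beside 27.7% higher and 28.4% lower among all tested genes. Their summed level was 9632 to 9771 CPM in shControl and 8299 to 8516 CPM in shIFITM3. None of 7 lung lineage markers, among them NKX2-1 and the surfactant genes, reached a testable level (summed 0.409 to 0.585 CPM over all 6 samples), so the lung identity of the line rests on its label. Of 10 immune markers CD3D and MS4A1 were at 0 in every sample and 2 were tested, CD68 and ITGAM, both higher in shIFITM3. Their summed level was 66.8 to 74.2 CPM in shControl and 80.4 to 87.7 CPM in shIFITM3, most of it CD68, and its part in the NF-kB values was not tested. Of 9 fibroblast and endothelial markers DCN and LUM were at 0 and 3 were tested, of which COL1A1 and CDH5 rose and PECAM1 fell. In such bulk samples fewer cells of a type and less RNA per cell cannot be told apart.

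**Figure D2:**
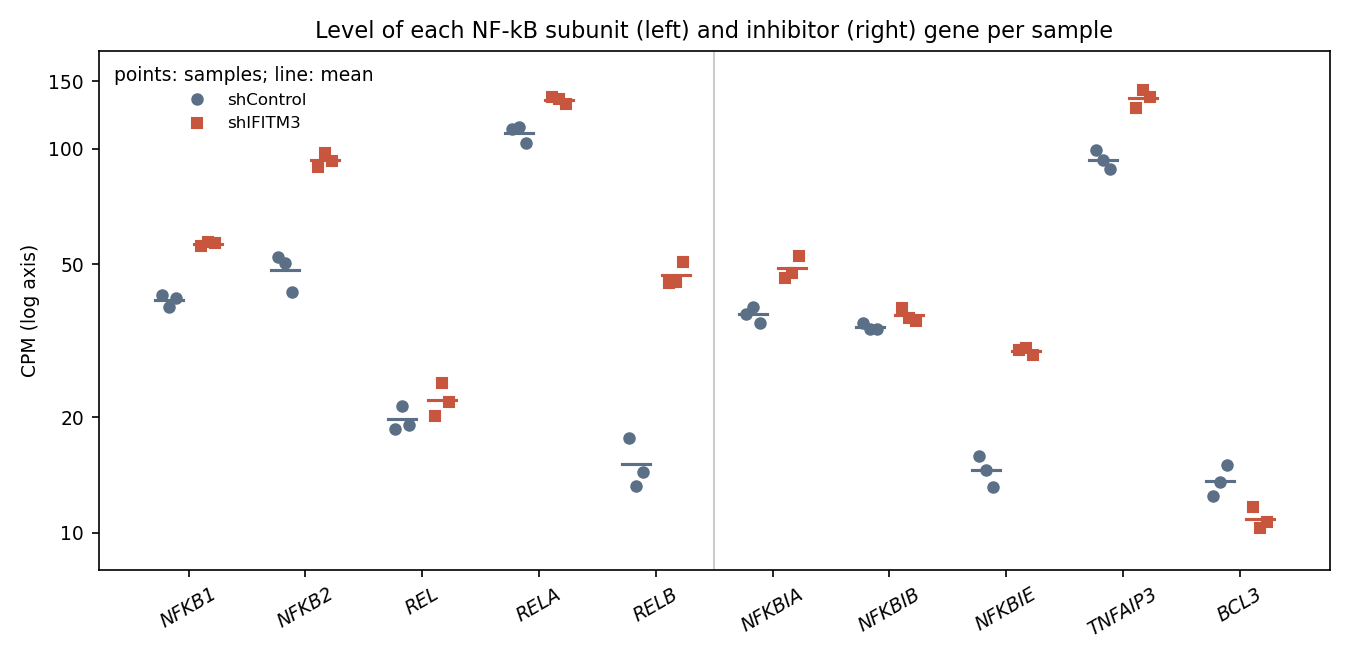
CPM on a log axis for each of the 10 genes in each sample, shControl as circles and shIFITM3 as squares, with a line at each group mean (3 samples per group). REL is the gene whose groups overlap, and BCL3 the one whose shIFITM3 samples lie below shControl.

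RELB (chromosome 19, 45001464 to 45038192, GRCh38.p14), the partner of p52 in the alternative pathway, showed the largest difference. In order of replicate number, as for every gene below, the controls were at 17.6, 13.2 and 14.4 CPM and the knockdown samples at 44.8, 45.0 and 50.8 CPM. The lowest knockdown sample was thus far above the highest control sample. The log2 fold change was 1.67 (SE 0.0849, edgeR adjusted p = 3.69e-14), a 3.18-fold level, and its size exceeded that of 97.9% of all tested genes.

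NFKB2 (chromosome 10, 102394110 to 102402529) encodes p100, which is both the precursor of p52 and an inhibitor that holds RELB. It was at 52.2, 50.4 and 42.4 CPM in shControl and at 89.6, 97.7 and 92.9 CPM in shIFITM3. All 3 knockdown samples lay above all controls, although shControl replicate 3 was the lowest of its group by a clear margin. NFKB2 rose 1.93-fold (log2 fold change 0.95, SE 0.0593, edgeR adjusted p = 1.74e-12). Counts per gene do not show how much p100 is trimmed to p52.

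NFKB1 (chromosome 4, 102501359 to 102617302), the gene for p105 and its product p50, was at 41.6, 38.7 and 40.8 CPM in shControl and at 55.9, 57.1 and 56.8 CPM in shIFITM3. Samples within each group were close and the groups were apart. It rose 1.41-fold (log2 fold change 0.50, SE 0.0523, edgeR adjusted p = 2.03e-08).

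RELA (chromosome 11, 65653601 to 65663857, minus strand) encodes p65, the main activating subunit of canonical dimers. Its level was 112.3, 114 and 103 CPM in shControl and 136, 135 and 131 CPM in shIFITM3. The groups did not overlap, and the rise was the smallest of those that passed, 1.22-fold (log2 fold change 0.28, SE 0.0427, edgeR adjusted p = 4.68e-06). Of all tested genes 54.7% had a smaller difference in size.

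REL (chromosome 2, 60881574 to 60931612) encodes c-Rel, the subunit best known from lymphocytes. It was at 18.7, 21.4 and 19.1 CPM in shControl and at 20.1, 24.6 and 21.9 CPM in shIFITM3, and the groups overlapped because shIFITM3 replicate 1 lay under shControl replicate 2. The log2 fold change of 0.16 (95% interval -0.02 to 0.34) did not pass (edgeR adjusted p = 0.119). It passed when shIFITM3 replicate 1 was left out (log2 fold change 0.22, edgeR adjusted p = 0.0467). In GENCODE 29, 43.3% of the exon bases of REL are shared with a same-strand noncoding gene that has no row of its own in the table.

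Among the inhibitors NFKBIE (chromosome 6, 44258166 to 44265551, minus strand), which encodes IkB epsilon, stood out. It was at 15.8, 14.6 and 13.2 CPM in shControl and at 29.9, 30.3 and 29.001 CPM in shIFITM3. The groups were far apart and the knockdown samples close together. NFKBIE rose 2.05-fold (log2 fold change 1.04, SE 0.0796, edgeR adjusted p = 7.61e-11). RELB and NFKBIE were the 2 genes of the 10 that rose at least 2-fold, as 4.83% of all tested genes did.

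NFKBIA (chromosome 14, 35401513 to 35404749, minus strand) encodes IkB alpha, the inhibitor that is degraded and made again within one round of canonical signalling. It was at 37.1, 38.8 and 35.2 CPM in shControl and at 46.1, 47.6 and 52.7 CPM in shIFITM3, with shIFITM3 replicate 3 the highest. The groups were apart and the rise was 1.31-fold (log2 fold change 0.39, SE 0.0607, edgeR adjusted p = 6.81e-06).

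NFKBIB (chromosome 19, 38899666 to 38908889) encodes IkB beta, whose synthesis is less tied to NF-kB than that of IkB alpha. It was at 35.1, 33.9 and 33.9 CPM in shControl and at 38.6, 36.3 and 35.5 CPM in shIFITM3. The knockdown samples lay just above the controls, but the difference did not pass (log2 fold change 0.10, 95% interval -0.02 to 0.23, edgeR adjusted p = 0.144). The exons of NFKBIB share 40 bases with SIRT2 on the opposite strand, which did not pass either (log2 fold change 0.09, edgeR adjusted p = 0.322). The 3 IkB genes therefore had unlike values, from 1.04 for NFKBIE through 0.39 for NFKBIA to 0.10 for NFKBIB on the log2 scale, with 95% intervals that did not overlap.

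TNFAIP3 (chromosome 6, 137866349 to 137883312) encodes A20, a ubiquitin-editing enzyme that stops signalling upstream of IKK. It was at 99.1, 93.3 and 88.3 CPM in shControl and at 128, 142 and 136 CPM in shIFITM3. An antisense gene, AL357060.1, shares 95 of its exon bases. All knockdown samples exceeded all controls, and TNFAIP3 rose 1.45-fold (log2 fold change 0.53, SE 0.0471, edgeR adjusted p = 9.05e-10).

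BCL3 (chromosome 19, 44747705 to 44760044) encodes an atypical IkB protein that works in the nucleus with p50 or p52 dimers. It was at 12.5, 13.5 and 15.0 CPM in shControl and at 11.6, 10.3 and 10.6 CPM in shIFITM3. The groups did not overlap, though shIFITM3 replicate 1 and shControl replicate 1 were less than 1 CPM apart. BCL3 fell to 0.792 times the control level (log2 fold change -0.34, SE 0.102, edgeR adjusted p = 0.00701), the one gene of the 10 to move down and the one with the largest standard error. The exons of BCL3 hold the microRNA gene MIR8085 (65 bases, same strand).

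**Figure D3:**
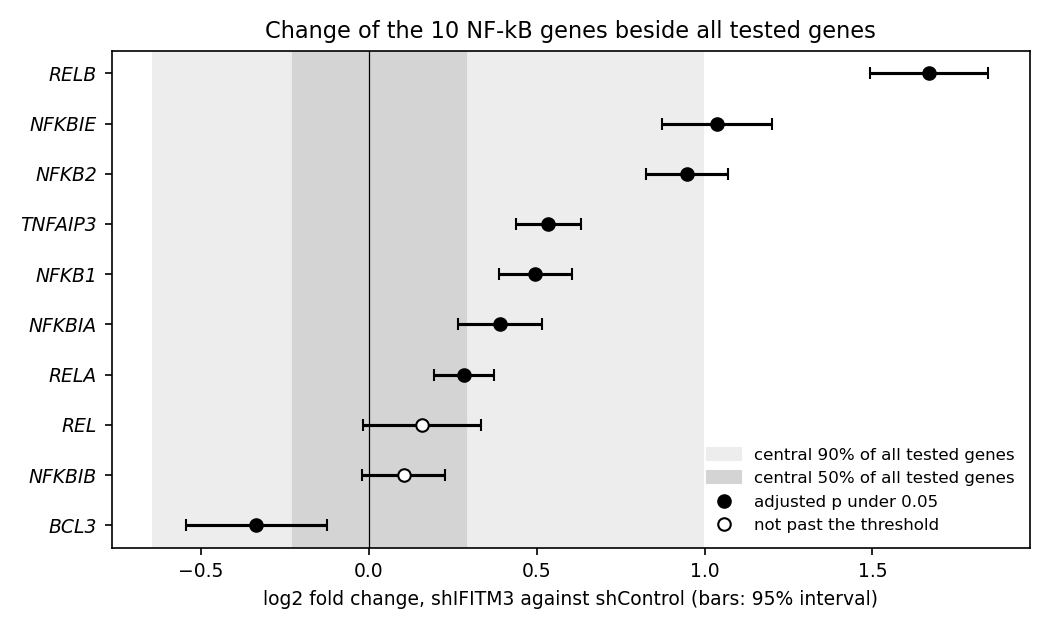
Log2 fold change of shIFITM3 against shControl (points, 3 samples per group) with 95% intervals for the 10 genes, filled where the edgeR adjusted p is under 0.05. Grey bands span the central 50% and 90% of all tested genes, and RELB (1.67) lies beyond the outer band, with NFKBIE (1.04) and NFKB2 (0.95) at its edge.

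Levels of different genes were compared per length, as RPKM (CPM per kilobase of the joined exons in GENCODE 29). In shControl the order from high to low was RELA (20.1 ± 1.04 RPKM, SD, n = 3), TNFAIP3 (18.5 ± 1.07), NFKBIA (15.6 ± 0.744), NFKBIB (14.8 ± 0.309), NFKB2 (10.8 ± 1.16), NFKB1 (6.45 ± 0.238), NFKBIE (5.63 ± 0.517), RELB (4.97 ± 0.749), BCL3 (4.21 ± 0.383) and REL (1.497 ± 0.110). Neighbours whose samples overlapped were RELA and TNFAIP3, NFKBIA and NFKBIB, NFKBIE and RELB, and RELB and BCL3. REL has a long annotated exon length (13170 bases), which lowers its value on this scale if the cells use shorter transcripts.

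In shIFITM3 the order differed at the top and in the middle. TNFAIP3 (26.8 ± 1.43 RPKM, SD, n = 3) stood above RELA (24.5 ± 0.503) with no overlap, and NFKB2 (20.8 ± 0.910) was level with NFKBIA (20.6 ± 1.46), their samples overlapping. RELB (15.4 ± 1.14) was level with NFKBIB (15.8 ± 0.681) and above NFKBIE (11.5 ± 0.268) and NFKB1 (9.05 ± 0.104). BCL3 (3.34 ± 0.219) and REL (1.69 ± 0.170) stayed the lowest 2. RELB thus stood eighth of the 10 in shControl and sixth in shIFITM3.

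The 5 subunit transcripts summed to 46.1, 44.3 and 41.1 RPKM in shControl and to 70.1, 72.4 and 72.2 RPKM in shIFITM3. The 5 other genes summed to 60.4, 59.2 and 56.6 RPKM and to 76.5, 78.7 and 79.0 RPKM. Both sums were higher in every knockdown sample than in any control. They restate the values of the single genes above, which were chosen with results known, and were not tested.

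The makeup of the subunit pool differed as well. RELB took 12.6%, 9.85% and 11.6% of the summed subunit RPKM in shControl and 21.04%, 20.5% and 23.2% in shIFITM3. NFKB2 took 24.6% ± 1.33 and 29.1% ± 0.879 (SD, n = 3 each). The share of RELA was 45.9% ± 1.26 in shControl and 34.3% ± 1.16 in shIFITM3, although the level of RELA itself was higher. NFKB1 took 14.7% ± 0.981 and 12.7% ± 0.0826, and REL 3.42% ± 0.308 and 2.35% ± 0.204. The shares of RELB and NFKB2, of the alternative pathway, were thus larger in shIFITM3 than in shControl, and those of the 3 others smaller. RELA still had the largest share in both groups. No test was run on these shares, because the genes were chosen with results known.

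**Figure D4:**
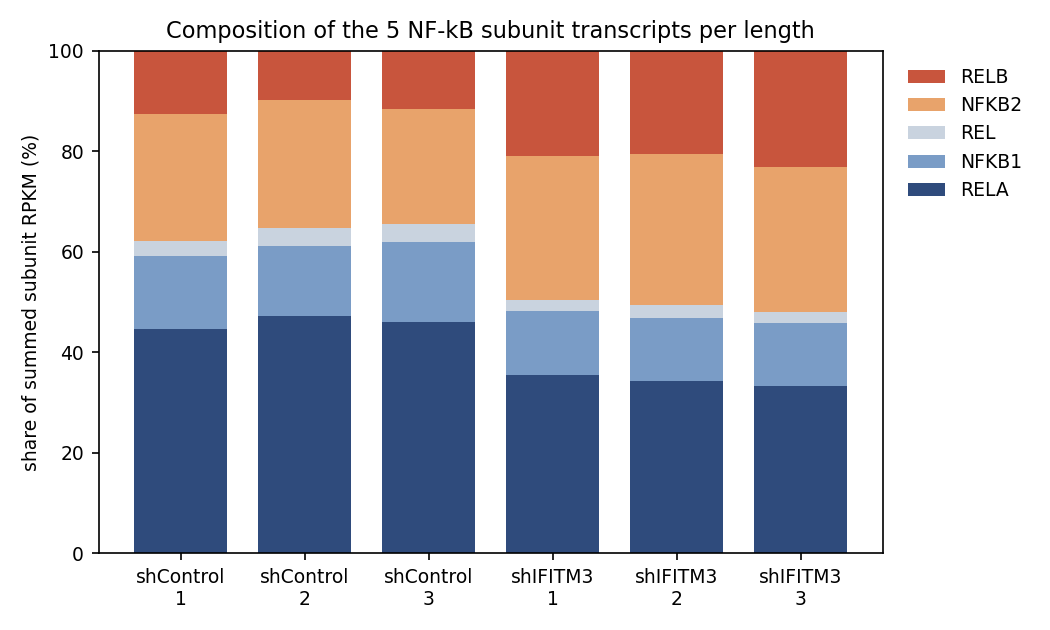
Share in percent of the summed RPKM of the 5 subunit genes in each of the 6 samples, as stacked bars that add to 100%. The RELB segment is 9.85% to 12.6% in shControl and 20.5% to 23.2% in shIFITM3, and the RELA segment is smaller in each shIFITM3 bar.

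Ratios within a sample show the same data pair by pair. RELB per RELA, both per length, was 0.283, 0.209 and 0.251 in shControl and 0.592, 0.600 and 0.700 in shIFITM3. NFKB2 per NFKB1 was 1.67 ± 0.194 in shControl and 2.30 ± 0.0768 in shIFITM3 (SD, n = 3 each). NFKB2 per RELB was 2.19 ± 0.334 and 1.35 ± 0.117, a lower ratio in every knockdown sample. NFKBIA per RELA was 0.776 ± 0.0129 and 0.839 ± 0.0776, and here the groups overlapped.

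The genes whose pattern over the 6 samples was most like that of RELB were sought among 10705 other genes, by the root mean square distance between log2 CPM profiles set to their own control mean. They were CLDN1, a tight junction claudin (distance 0.0558 on the log2 scale), SLITRK6, a transmembrane protein (0.0580), and OLR1, a receptor for oxidised LDL (0.0764). Their log2 fold changes were 1.66, 1.76 and 1.54. With 2 groups of 3 samples such likeness rests mostly on the difference between groups.

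Genes that feed the 10 from upstream were read from lists of receptors, ligands, kinases and adaptors. The counts of each list stand beside 27.7% higher and 28.4% lower among all tested genes. The kinase list also held IKBKG, TAB1, TAB2 and TAB3, whose products are partners of kinases and not kinases. Of its 13 tested genes 7 rose and 3 fell, with a median log2 fold change of 0.15. TAB3, which links TAK1 to ubiquitin chains, was at 105, 100.3 and 98.6 CPM in shControl and at 151, 153 and 156 CPM in shIFITM3 (log2 fold change 0.60). RIPK2, the kinase of NOD receptor signalling, rose too (0.47). IKBKG, the regulatory subunit of IKK, had a value of 0.61 and a wide control spread (36.3, 21.6 and 28.2 CPM), and it has a near-identical pseudogene, so its value is uncertain.

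The catalytic IKK genes differed in direction: IKBKB, for IKK beta of the canonical pathway, was at 18.6 ± 1.59 and 24.4 ± 0.984 CPM (SD, n = 3 each; log2 fold change 0.38), and CHUK, for IKK alpha, at 29.05 ± 1.31 and 25.5 ± 1.02 CPM (-0.19, edgeR adjusted p = 0.0234). Both were named after their values were seen.

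MAP3K14, the gene for NIK, was among the 3 kinase genes that fell. It was at 143, 146 and 151 CPM in shControl and at 115, 124 and 112 CPM in shIFITM3, with no overlap (log2 fold change -0.32, SE 0.0424, edgeR adjusted p = 6.81e-07). The adaptors TRAF2 and TRAF3 and the ligases BIRC2 and BIRC3 are known to hold NIK protein low in resting cells. On the log2 scale TRAF2 rose by 0.43, TRAF3 by 0.34, BIRC2 by 0.80 and BIRC3 by 1.69. Of all tested genes 27.7% were higher. NIK protein was not measured. BIRC2 and BIRC3 were named for their small p in this comparison. TRAF2 and TRAF3 were named after their values were seen.

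The list of adaptor and ubiquitin ligase genes also held others, such as the kinases IRAK1 and IRAK4 and the ubiquitin-conjugating enzyme UBE2N. Of its 24 tested genes 16 rose and 3 fell, with a median of 0.29. BIRC3, itself a known NF-kB target, was at 40.4, 31.6 and 32.1 CPM in shControl and at 116, 104 and 110.7 CPM in shIFITM3. IRAK2, a kinase-like adaptor of interleukin-1 and Toll-like receptors, was at 9.003, 6.68 and 7.81 CPM and at 20.3, 23.1 and 23.8 CPM (log2 fold change 1.56). MYD88, the adaptor of the same receptors, rose by 0.58. The knockdown samples lay above the controls for each of these, which were named for their small p in this same comparison. Among all tested genes 30.1% had groups apart in that direction.

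Of 15 tested receptor genes 9 rose and 1 fell, with a median of 0.31, and 3 others were too low to test. Without shControl replicate 2 the count of receptors that fell was 2. CD40, a receptor that signals through both pathways, was at 2.55, 2.82 and 2.48 CPM in shControl and at 7.04, 6.96 and 6.36 CPM in shIFITM3 (log2 fold change 1.36). TNFRSF12A, the receptor of TWEAK, was far more abundant, at 279 to 291 CPM in shControl and 343 to 379 CPM in shIFITM3 (0.31). TLR2 and TLR5 rose from low levels, by 1.83 and 1.57.

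Ligand genes were mostly low. Of 13, 8 were tested, of which 5 rose and 0 fell (median log2 fold change 0.55). The filter asked for about 0.428 CPM in 3 samples, and 4 of the 8 reached that level in every sample, of which 3 rose. TNF had 0 counts in all 3 controls and 26, 16 and 42 counts in shIFITM3 replicates 1, 2 and 3, so it passed the filter through the knockdown samples alone. Its level was 0.696 to 1.76 CPM in the knockdown samples and 1.22 CPM over the 3 together. That joint level was 51.0-fold above a floor of 3 counts over the control group. Counts may come in pairs here, since 103 of 119 counts above 0 of listed genes too low to test were even. With a floor of 6 counts the ratio was 25.5-fold. Both ratios leave out the error of the knockdown counts, so neither is a strict lower bound. With TNF set to the 51.0-fold ratio the median of the list was again 0.55. LTB, which with LTA forms the ligand of the lymphotoxin beta receptor, was at 0.707, 0.299 and 0.292 CPM and at 3.77, 2.91 and 3.22 CPM (log2 fold change 3.08). LTB reached the level of the filter in 1 of 3 controls and so, like TNF, passed through the knockdown samples. LTA itself was too low to test. TNFSF9 (1.43) and TNFSF15 (0.74) rose too.

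Of the other negative regulators 8 of 18 tested genes were higher and 4 lower, with a median of 0.05. Among all tested genes 27.7% were higher and 28.4% lower. Without shControl replicate 1 the count of those that fell was 2. TNIP1, a partner of A20, was at 184, 184 and 181 CPM in shControl and at 325, 323 and 336 CPM in shIFITM3 (log2 fold change 0.84, SE 0.0328, edgeR adjusted p = 2.22e-16). CYLD, a deubiquitinase that acts against IKK activation, was at 36.5, 33.1 and 32.7 CPM and at 58.6, 58.0 and 63.6 CPM (0.82). TOLLIP (0.93), which dampens interleukin-1 and Toll-like receptor signals, and RNF11 (0.45), part of the A20 complex, rose. The nuclear IkB genes NFKBIZ (-0.01) and NFKBID (-0.33), relatives of BCL3 named after their values were seen, did not pass (edgeR adjusted p = 0.961 and 0.246).

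Target genes were read beside the regulators. Their counts, too, stand beside 27.7% higher and 28.4% lower among all tested genes. Of 18 cytokine and chemokine targets 8 were high enough to test, of which 6 rose and 0 fell (median log2 fold change 1.04). Of the 6 that reached the level of the filter in every sample 5 rose, and CXCL1, which also rose, reached it in 2 of 3 controls. IL23A, a cytokine subunit, was at 5.42, 4.07 and 3.43 CPM in shControl and at 29.9, 25.1 and 26.2 CPM in shIFITM3 (log2 fold change 2.68). CXCL8, the neutrophil chemokine, was at 5.28, 4.51 and 4.05 CPM and at 14.7, 14.2 and 15.7 CPM (1.70). IL32 (1.11) and LIF (0.96) rose. In each of these 4 genes the groups were apart, but they were named for their small p in this comparison. Groups apart and higher were seen in 30.1% of all tested genes.

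Of 16 tested survival, adhesion and enzyme targets 11 rose and 3 fell, with a median of 0.47. TRAF1 was at 3.58, 3.27 and 2.41 CPM in shControl and at 17.8, 17.7 and 20.1 CPM in shIFITM3 (log2 fold change 2.58). ICAM1, the leukocyte adhesion molecule, was at 45.7, 46.3 and 49.4 CPM and at 89.3, 85.9 and 88.0 CPM (0.90), and IER3, an immediate early survival gene, rose by 0.70. TNFAIP2 went the other way, at 228, 243 and 235 CPM in shControl and 121, 125 and 126 CPM in shIFITM3 (-0.93). LCN2 (-0.73) and TNFAIP8 (-0.54), named after their values were seen, fell as well. The lists were chosen with results of these samples known, so their counts are no independent evidence of a direction.

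**Figure D5:**
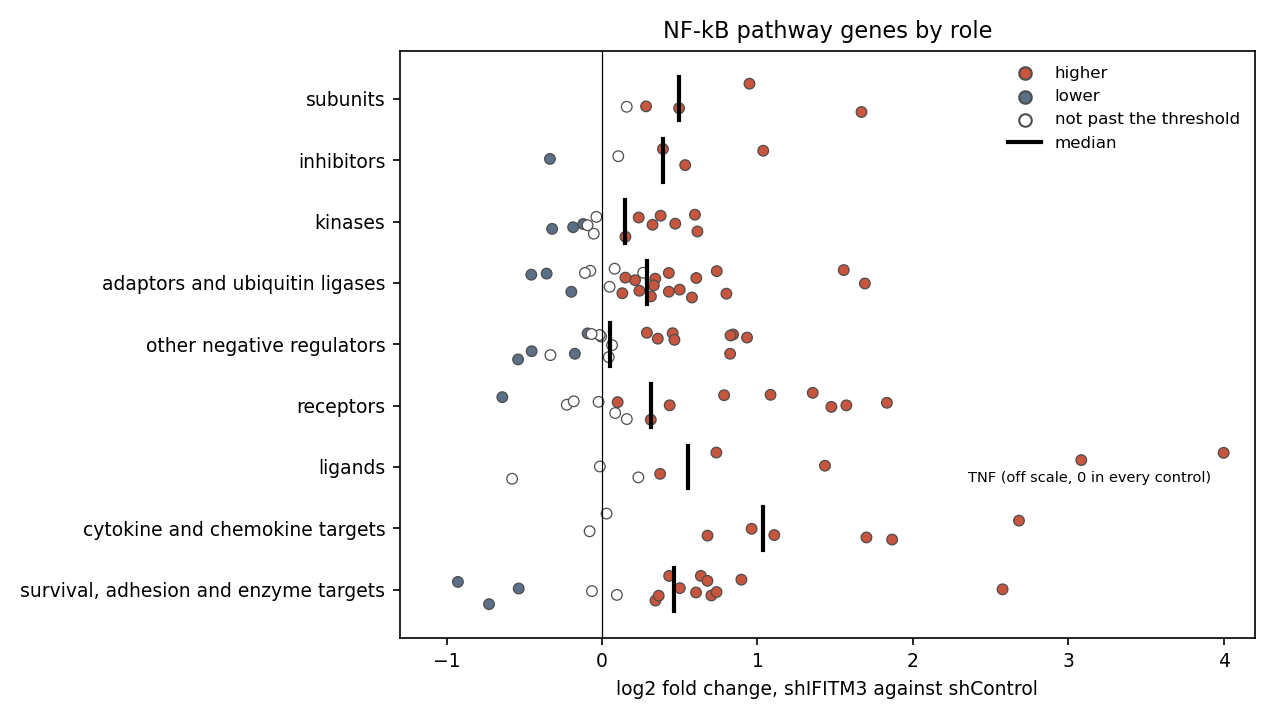
Log2 fold change of shIFITM3 against shControl for each tested gene (points) in lists by role, red where higher, blue where lower and white where the edgeR adjusted p is not under 0.05, with a black line at each list median. Medians run from 0.05 (other negative regulators) to 1.04 (cytokine and chemokine targets), and TNF is drawn at the right edge because its controls were at 0.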

How the data were processed

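For 6 samples (3 per group) the values are raw counts by gene symbol, as deposited by the authors. The submitters' processing notes list hg38 and, with no role or order, featureCounts (Subread 2.0.6), HISAT2 2.2.1, fastp 0.23.4, SAMtools 1.20 and FastQC 0.12.1. Which annotation and strand setting served for counting is not given in the sources used here. Reads of genes that overlap on opposite strands may therefore be mixed. The test was edgeR 4.0.16 (R 4.3.3): filterByExpr by group, TMM scaling (factors 0.995 to 1.006), glmQLFit on group and two-sided glmQLFTest, with Benjamini-Hochberg adjustment over all 14018 tested genes and a threshold of 0.05. SE was derived from the F statistic (size of the log2 fold change over root F), and 95% intervals use its moderated degrees of freedom. RPKM is that CPM per kilobase of joined GENCODE 29 exons. The script was tested on simulated data with far fewer changed genes than passed here. The simulated counts did not come in pairs.

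The members and lists were chosen with earlier results of these data known. Genes named are the 10 members, IFITM3, the 4 genes of smallest p in each pathway list, neighbours whose exons overlap a member, and 3 genes most like RELB (average log2 CPM of at least 2, pseudocount 0.5, leaving out symbols of unnamed, antisense and long noncoding loci); others are marked as named later. Alternatives were scaling by total counts, RLE or upper quartile, no filter, a filter of 50 counts in 3 samples, DESeq2 1.42.0, limma-voom (limma 3.58.1), the replicate number as a block, the deepest library thinned, each sample left out and, chosen after seeing the data, a correction for GC and length. Same-numbered samples did not deviate together (correlations 0.0258, 0.0466 and 0.00411), so the numbers were not taken as pairs. Replicates of a group differed beyond the counting noise of single counts (chi-square per degree of freedom 2.80 to 4.91). If counts come in pairs, counting noise itself is larger and the excess smaller. Protein sequences were not used here. A count of 0 allows 3 counts, 0.0390 to 0.141 CPM per library, or 6 counts, 0.0779 to 0.283 CPM, if counts come in pairs, for counting error only.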

Additional observations from a re-analysis of the deposited data

How the results depend on the processing

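Of the 10 genes, 9 kept their direction and their side of the threshold under all 16 alternatives, and REL passed only without shIFITM3 replicate 1. The log2 fold change ran from 1.56 to 1.77 for RELB, 0.83 to 0.99 for NFKB2, 0.96 to 1.09 for NFKBIE, 0.17 to 0.32 for RELA and -0.45 to -0.27 for BCL3, whose adjusted p reached 0.0474. With the GC and length correction the members' median was 0.37, that of all genes -0.06, and 2 receptors fell; 40.8% of the genes that passed were higher, against 49.4% without it. With each sample left out in turn, the members that rose were 7 to 8, the receptors that fell 1 to 2 and the other negative regulators that fell 2 to 4. The receptors that rose were 8 in each of these fits, against 9 with all samples. Genes of the kinase list that rose were 5 to 7, other negative regulators 6 to 8, ligands 4 to 5 and adaptors and ligases 15 to 16. Fitted with the replicate block, 7 members rose and 1 fell, and 7870 genes passed in all, the same number as without it. No shControl sample except replicate 2 correlated best with its own number. With counts not divided by length, the share differences (shIFITM3 minus shControl, in percentage points) were 6.81 for RELB, 5.78 for NFKB2, -1.28 for NFKB1, -2.18 for REL and -9.14 for RELA, against 10.2, 4.56, -2.09, -1.07 and -11.6 per length. The looser kB pattern also matched 7 genes (16.4% of all genes). Depth limits the low genes: TNF, LTB and most chemokines had few counts.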

Other observations

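Several textbook NF-kB products were not detected at this depth. The genes CCL2, CSF3, VCAM1 and SELE had 0 counts in all 6 samples. Depending on the library, a floor of 3 counts allows up to 0.0390 to 0.141 CPM, and a floor of 6 counts, if counts come in pairs, up to 0.0779 to 0.283 CPM. CD40LG, a T cell ligand upstream of NF-kB, was at 0 as well. CCL20, CCL5 and CXCL6 did not exceed 2 counts in any sample, CXCL10 4 counts, CSF2 6 counts and BCL2A1 3 counts. The chemokine genes CXCL1 (0.534 ± 0.209 and 1.77 ± 0.331 CPM in shControl and shIFITM3, SD, n = 3 each) and CXCL2 (0.585 ± 0.0745 and 0.547 ± 0.257 CPM) had unlike values, with CXCL1 higher (edgeR adjusted p = 0.000117) and CXCL2 not past the threshold (edgeR adjusted p = 0.888). Whether the difference between these 2 genes exceeds error was not tested, and their sequences are similar enough that reads may be shared. These genes were chosen after their values were seen.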
